A study of Sus scrofa with 9 samples.

Results

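TNNC1, TNNT1 and TNNT2 encode the slow or cardiac troponin C, the slow skeletal troponin T and the cardiac or embryonic troponin T. They were found by matching the gene identifiers of the expression table to pig symbols, and each symbol matched 1 entry, so the 3 genes are 3 of 19643 entries. Their identifiers are ENSSSCG00000011441 for TNNC1, ENSSSCG00000025353 for TNNT1 and ENSSSCG00000023031 for TNNT2, and none of these identifiers is repeated in the table. All 3 genes averaged at least 1 FPKM (fragments scaled by transcript length and library size) over the 9 libraries, the minimum for testing, which 13106 entries reached. Their levels are described in the longissimus dorsi, the long back muscle, of embryonic pigs of 3 breeds.

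The groups are 3 Tibetan, 3 Wujin and 3 Large White libraries. The Tibetan and Wujin pigs are labelled as indigenous Chinese breeds, all 9 samples are labelled embryonic longissimus dorsi, and no treatment, genotype or gestational day is given. Breed and embryonic age therefore cannot be told apart. Wujin 1 carries its own number, and the rest of that breed carry a repeated header and are called Wujin a and Wujin b. Separate animals are not stated for the samples of a breed, and p-values here measure only how far these samples spread, which may be technical. The stated subject relates muscle before birth to growth after birth.

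Troponin is the calcium switch of striated muscle. Troponin C binds calcium, troponin I holds the thin filament off, and troponin T anchors both to tropomyosin, the protein that lies along actin and covers its myosin-binding sites. Each subunit has separate genes for slow and fast fibres. Adult slow fibres pair TNNC1 with TNNT1 and TNNI1, the heart uses TNNC1 with TNNT2, and TNNT2 is also made in developing skeletal muscle, where it normally declines as the adult isoforms take over.

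Total FPKM was 505042 to 677783 per library, and depth, estimated from the spacing of low values, was 1 to 1.22 times that of Large White 1. The number of fragments is unknown, so no counting interval is given. The median tested entry lay at 3.15 to 3.61 FPKM in the Tibetan libraries, at 4.84 to 6.27 FPKM in the Wujin and at 6.72 to 7.20 FPKM in the Large White ones, and the median fitted log2 change of all tested entries was -0.77 for Tibetan minus Large White, -0.20 for Wujin minus Large White and -0.55 for Tibetan minus Wujin. A relative change below is a gene's fitted log2 change minus that median. Fitted changes are on the log2(FPKM + 1) scale, which understates changes of low genes. Adjusted p-values are from limma with Benjamini-Hochberg adjustment over all 13106 entries, called under 0.05. The share of entries called higher was 13.0% and lower 63.2% for Tibetan minus Large White, 13.8% and 53.9% for Tibetan minus Wujin, and 1.67% and 4.85% for Wujin minus Large White. Any difference among the breeds was called in 77.6% of entries by the F test. A call of lower expression in Tibetan muscle was thus the rule rather than the exception, so the size and rank of a change say more than the call.

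TNNT2, the embryonic and cardiac troponin T, was a minor transcript in Tibetan muscle and an abundant one in both other breeds. It measured 6.41, 7.95 and 5.16 FPKM in Tibetan 1, 2 and 3. It measured 1023, 740.2 and 663 FPKM in Wujin 1, a and b, and 556, 518 and 423 FPKM in Large White 1, 2 and 3. The breeds did not overlap, in the order Wujin, Large White, Tibetan, with means of 809 ± 189, 499 ± 68.4 and 6.51 ± 1.40 FPKM (SD, n = 3 libraries each). The share of all tested entries whose breeds lie apart in this way was not counted, here or for the genes below. Among the 19643 entries of a library, TNNT2 ranked 3606 to 5201 in the Tibetan, 84 to 124 in the Wujin and 148 to 172 in the Large White libraries.

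The mean FPKM of TNNT2 was 76.7-fold lower in Tibetan than in Large White libraries. The fitted log2 change was -6.07 ± 0.20 (SE, adjusted p = 5.46e-08), a relative change of -5.29, and it was the 20th lowest of the 13106 fitted changes. Against Wujin the mean was 124-fold lower, with a fitted log2 change of -6.74 ± 0.20 (adjusted p = 5.41e-08) and a relative change of -6.19, the 8th lowest of all. Both calls far exceed the spread between libraries. The level in the Wujin libraries was 1.62-fold that in the Large White libraries. That neighbouring pair did not overlap, but the fitted log2 difference of 0.68 ± 0.20 was not called (adjusted p = 0.0679). Without Wujin b it was 0.81 and was called (adjusted p = 0.0485), and with a pseudocount of 5 it was 0.68 and was called (adjusted p = 0.0454).

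TNNT1, the slow skeletal troponin T, was highest in Tibetan and lowest in Wujin muscle by the breed means, the reverse of TNNT2. It measured 893, 2855 and 1044 FPKM in Tibetan 1, 2 and 3. It measured 639, 515 and 379 FPKM in Wujin 1, a and b, and 872, 613 and 610.3 FPKM in Large White 1, 2 and 3. Tibetan 2 stood 2.95-fold above the mean of the other Tibetan libraries, and the lowest Tibetan library was just above the highest Large White one. The Wujin and Large White ranges overlapped. The means were 1597 ± 1092, 511 ± 129.6 and 698 ± 150.1 FPKM in Tibetan, Wujin and Large White (SD, n = 3 libraries each).

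TNNT1 was called higher in Tibetan than in Wujin libraries, 3.13-fold by the means, with a fitted log2 difference of 1.47 ± 0.41 (adjusted p = 0.00988) and a relative change of 2.02. Without Tibetan 2 that difference was 0.95 and was still called (adjusted p = 0.0100). Against Large White, Tibetan TNNT1 was 2.29-fold higher, with a fitted log2 difference of 1.01 ± 0.41 (adjusted p = 0.0454) and a relative change of 1.78. This call sat at the threshold and was lost without Tibetan 2, at 0.49 (adjusted p = 0.105), and the settings that also end it are given with the processing alternatives. Wujin minus Large White was -0.46 ± 0.41 and was not called (adjusted p = 0.442).

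TNNC1, the calcium-binding subunit shared by slow muscle and heart, was not called in any comparison. It measured 1663, 8645 and 1615 FPKM in Tibetan 1, 2 and 3. It measured 2105, 1568 and 1269 FPKM in Wujin 1, a and b, and 1722, 1396 and 1249.6 FPKM in Large White 1, 2 and 3. All 3 breeds overlapped, and Tibetan 2 alone lay 5.27-fold above the mean of the other Tibetan libraries. TNNC1 ranked 11 in Tibetan 2 and 32 to 71 in the other 8 libraries, so it was an abundant transcript in every one.

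The mean level of TNNC1 was 3974 ± 4045 FPKM in Tibetan, 1647 ± 424 in Wujin and 1456 ± 242 in Large White libraries (SD, n = 3 each). The fitted log2 differences were 0.98 ± 0.57 for Tibetan minus Large White (adjusted p = 0.139), 0.82 ± 0.57 for Tibetan minus Wujin (adjusted p = 0.223) and 0.16 ± 0.57 for Wujin minus Large White (adjusted p = 0.8615). Without Tibetan 2 the first and the second were 0.18 (adjusted p = 0.476) and 0.024 (adjusted p = 0.933). Median-ratio scaling, which removes the shift of the median gene between breeds, gave a Tibetan minus Large White difference of 1.96 that was called (adjusted p = 0.0208). Under that scaling TNNT1 was 1.99 (adjusted p = 0.00467) and TNNT2 was -5.15 in the same comparison.

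By the F test over the 3 breeds, TNNT2 (adjusted p = 4.83e-08) and TNNT1 (adjusted p = 0.0215) were called and TNNC1 (adjusted p = 0.253) was not. Bulk RNA does not separate fewer cells of a type from less RNA per cell, which holds for each level given here.

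**Figure D1:**
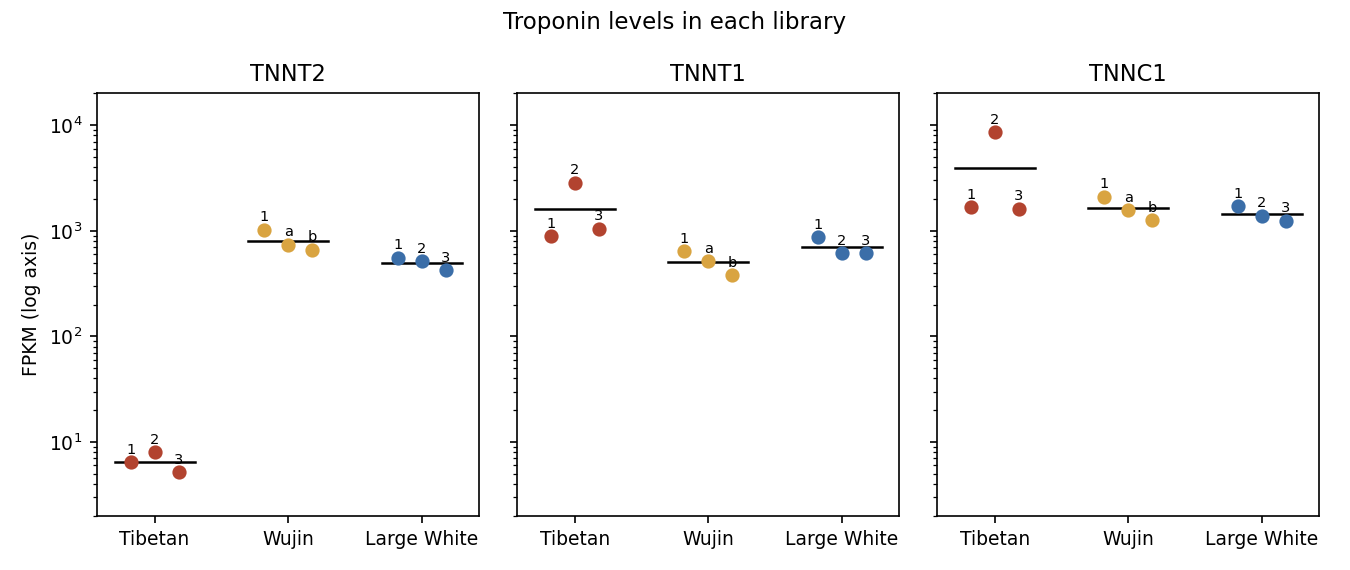
FPKM (log axis) of TNNT2, TNNT1 and TNNC1 in the 3 libraries of each breed, 1 point per library labelled by its number or letter, with the breed mean as a black line. TNNT2 lies at 5.16 to 7.95 FPKM in the Tibetan and at 423 to 1023 FPKM in the other libraries, whereas Tibetan 2 is the highest point for TNNT1 and TNNC1.

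FPKM are scaled by length, so the levels of the troponin T genes can be set against each other within a library. That comparison depends on the transcript lengths used, and the annotation and quantifier are not named. TNNT2 made up 0.713%, 0.278% and 0.491% of the summed FPKM of TNNT1 and TNNT2 in Tibetan 1, 2 and 3. The share was 61.6%, 59.0% and 63.6% in the Wujin libraries 1, a and b, whereas Large White 1, 2 and 3 had 39.0%, 45.8% and 41.0%. By FPKM, TNNT2 was thus the larger of the pair in every Wujin library and the smaller in every Tibetan and Large White library, and no breeds overlapped. TNNT3, the fast troponin T, matched no entry by symbol, so these are shares of this pair and not of all troponin T.

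The breed means of the share were 0.494 ± 0.218% in Tibetan, 61.4 ± 2.32% in Wujin and 41.9 ± 3.51% in Large White libraries (SD, n = 3 each). The exact permutation test of the F statistic over the 3 breeds gave p = 0.00357, the smallest this design allows (adjusted p = 0.00476 over 4 ratios tested). The log2 ratio of TNNT2 to TNNT1 was -7.55 ± 0.71, 0.67 ± 0.14 and -0.47 ± 0.21 in the same order (exact permutation p = 0.00357, adjusted p = 0.00476). A ratio within a library does not depend on a library scale factor. Between the Wujin and Large White libraries the mean log2 ratio differed by 1.14. The test covers the 3 breeds together, and that pair was not tested alone.

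The summed FPKM of both troponin T genes overlapped between all breeds. Tibetan 1, 2 and 3 had 899, 2863 and 1049 FPKM in sum. Wujin 1, a and b had 1662, 1255 and 1043 FPKM, whereas Large White 1, 2 and 3 had 1428, 1131 and 1034 FPKM. The breeds were separated by the shares of the pair but not by its sum.

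**Figure D2:**
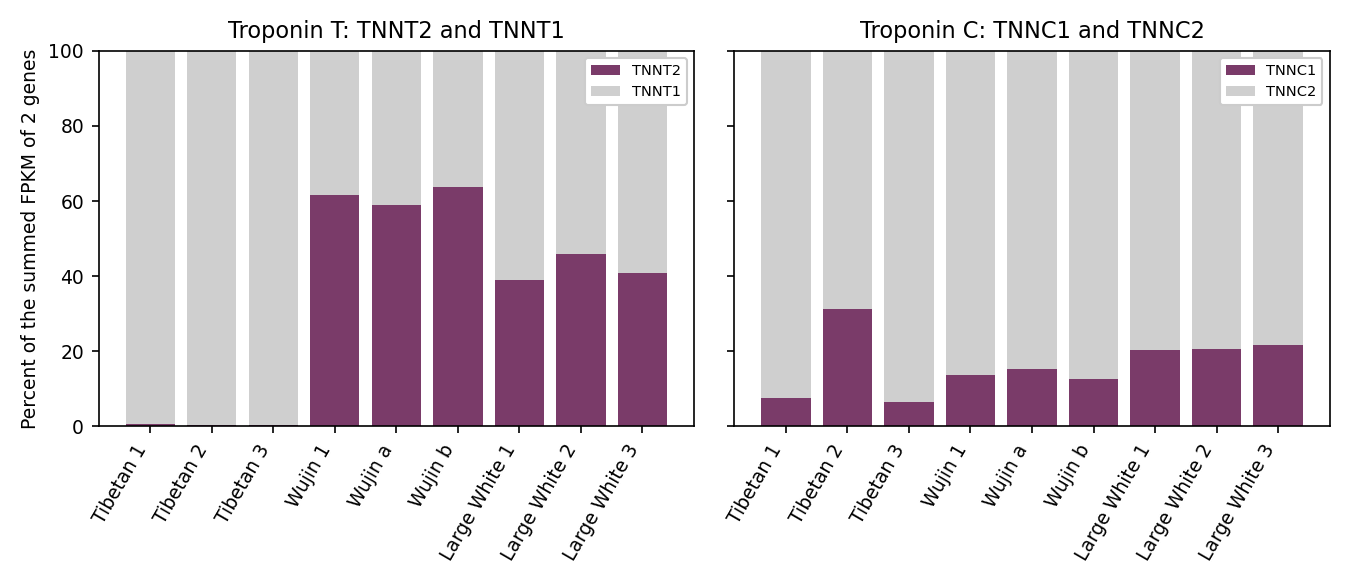
Percent of summed FPKM in each of the 9 libraries, as stacked bars, for TNNT2 against TNNT1 and for TNNC1 against TNNC2. TNNT2 is under 1% of its pair in the Tibetan libraries and 39.0% to 63.6% in the others, and TNNC1 is 31.4% of its pair in Tibetan 2.

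The calcium-binding subunit was next set against each troponin T gene. The FPKM of TNNC1 was 1.86, 3.03 and 1.55 times that of TNNT1 in Tibetan 1, 2 and 3. The ratio was 3.30, 3.05 and 3.34 in the Wujin libraries 1, a and b, whereas Large White 1, 2 and 3 had 1.98, 2.28 and 2.05. The Wujin ratios lay above every other library, by a small margin over Tibetan 2. The log2 ratio was 1.04 ± 0.50, 1.69 ± 0.07 and 1.07 ± 0.11 in Tibetan, Wujin and Large White (n = 3 each), and the exact permutation test did not pass (p = 0.111, adjusted p = 0.111). Without Tibetan 2, whose ratio stood apart from the rest of its breed, the exact permutation p of this ratio fell to 0.00357. That p is not adjusted, is the smallest possible without that library, and comes from leaving out the library that stood apart. The log2 ratio of TNNC1 to TNNT2 was 8.59 ± 1.16 in Tibetan, 1.02 ± 0.08 in Wujin and 1.54 ± 0.10 in Large White libraries (exact permutation p = 0.00357, adjusted p = 0.00476).

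The slow troponin I gene TNNI1 completes the slow complex. In the RefSeq gene table of Sscrofa11.1, TNNI1 is 2 genes from TNNT2, with LAD1 between them. TNNI1 measured 1019, 3367 and 1273 FPKM in Tibetan 1, 2 and 3. It measured 1620.4, 1242 and 1026 FPKM in Wujin 1, a and b, and 1595, 1172 and 1174 FPKM in Large White 1, 2 and 3. All breeds overlapped, and no comparison was called, with 0.33 ± 0.40 for Tibetan minus Large White (adjusted p = 0.467), whereas its neighbour TNNT2 changed by -6.07. Without Tibetan 2 the TNNI1 difference was -0.19 (adjusted p = 0.47), and under median-ratio scaling it was 1.31 and was called (adjusted p = 0.0324).

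The ratio of TNNI1 to TNNT1 was steady within breeds. This ratio was chosen after its values were seen and was not tested. Tibetan 1, 2 and 3 had ratios of 1.14, 1.18 and 1.22, so Tibetan 2 was no exception. Wujin 1, a and b had ratios of 2.54, 2.41 and 2.71, whereas those of Large White 1, 2 and 3 were 1.83, 1.91 and 1.92. The 3 ranges do not overlap. The ratio of TNNC1 to TNNI1 was 2.57 in Tibetan 2 and 1.06 to 1.63 in the other libraries, so in Tibetan 2 TNNC1 was raised beyond TNNT1 and TNNI1.

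TNNC2, the fast-fibre troponin C, was the most abundant troponin gene measured. It reached 19958, 18928 and 23406 FPKM in Tibetan 1, 2 and 3. It measured 13304, 8756 and 8834 FPKM in Wujin 1, a and b, and 6788, 5338 and 4521 FPKM in Large White 1, 2 and 3. The breeds did not overlap, and TNNC2 was called higher in Tibetan than in Large White (1.92 ± 0.22, adjusted p = 3.99e-05), higher in Tibetan than in Wujin (1.03 ± 0.22, adjusted p = 0.00233) and higher in Wujin than in Large White (0.88 ± 0.22, adjusted p = 0.0482). The call against Large White in Wujin was lost without Tibetan 2 (0.88, adjusted p = 0.0554) and under median-ratio scaling (1.12, adjusted p = 0.0657), under which the Tibetan differences were 2.90 and 1.77.

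TNNC1 as a share of the summed FPKM of both troponin C genes was 7.69%, 31.4% and 6.45% in Tibetan 1, 2 and 3. The share was 13.7%, 15.2% and 12.6% in the Wujin libraries 1, a and b, whereas Large White 1, 2 and 3 had 20.2%, 20.7% and 21.7%. Apart from Tibetan 2, the Tibetan libraries held the lowest shares and the Large White libraries the highest. This share was not tested.

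Among the 5 troponin genes measured, 2 were called higher (TNNC2 and TNNT1), 1 lower (TNNT2) and 2 not called (TNNC1 and TNNI1) in Tibetan minus Large White. Of all tested entries, 13.0% were called higher and 63.2% lower there. TNNC2, TNNT1 and TNNT2 were called in the same directions in Tibetan minus Wujin, beside 13.8% higher and 53.9% lower of all tested entries. Only TNNC2 was called, and higher, in Wujin minus Large White, beside 1.67% higher and 4.85% lower of all tested entries. Without Tibetan 2, 1 was called higher and 1 lower in Tibetan minus Large White, and 4 higher and 1 lower under median-ratio scaling. That scaling also raised the number of all entries called higher and reduced the number called lower.

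**Figure D3:**
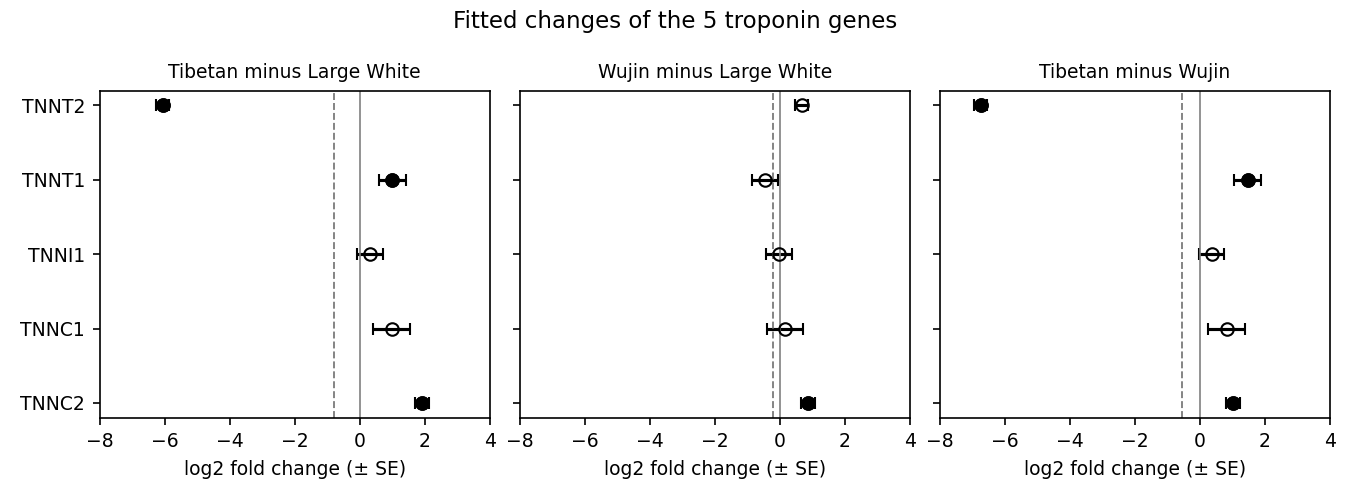
Fitted log2 fold changes ± SE of TNNT2, TNNT1, TNNI1, TNNC1 and TNNC2 in the 3 comparisons of breeds, from limma on log2(FPKM + 1). Filled points are called and open points are not, the solid line is 0 and the dashed line is the median of all tested entries. TNNT2 lies at -6.07 and -6.74 in the Tibetan comparisons, and TNNC2 is the only filled point in Wujin minus Large White.

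Within breeds, the deviations of TNNC1, TNNT1 and TNNI1 were alike over the libraries, although not in every step: TNNC1 was lower and TNNT1 and TNNI1 higher in Tibetan 3 than in Tibetan 1. As deviations of log2(FPKM + 1) from the breed mean, the Pearson correlation over the 9 libraries was 0.971 for TNNC1 with TNNT1, 0.974 for TNNC1 with TNNI1 and 0.995 for TNNT1 with TNNI1. TNNT2 deviated in the same direction less closely, at 0.717 with TNNC1 and 0.732 with TNNT1. TNNC2 with TNNC1 was at 0.0396 over the 9 libraries. Both were highest of their breeds in Wujin 1 and Large White 1, whereas in Tibetan 2 TNNC1 was highest and TNNC2 lowest. The genes share their libraries, and Tibetan 2 carries much of the range, so these are descriptions. On the levels themselves, over the same 9 libraries, TNNC1 with TNNT1 was 0.883, TNNC1 with TNNT2 was -0.472 and TNNT1 with TNNT2 was -0.731.

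The highest library of each breed was the same for TNNC1, TNNT1, TNNT2 and TNNI1, namely Tibetan 2, Wujin 1 and Large White 1. That combination occurred in 3.38% of tested entries. The gap in the other breeds was small, since Wujin 1 was 1.48-fold and Large White 1 was 1.30-fold above the mean of the rest of its breed for TNNC1. TNNT2 was 1.37-fold higher in Tibetan 2 than the mean of the other Tibetan libraries, against 5.27-fold for TNNC1, 2.95-fold for TNNT1 and 2.94-fold for TNNI1.

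Tibetan 2 also differed in other ways. TNNC1, TNNT1 and TNNI1 were at least 2-fold above both other Tibetan libraries there, as were 2.01% of tested entries, or 263. Tibetan 1 and Tibetan 3 stood apart in the same way for 286 and 230 entries. Of the 7 slow-fibre genes tested, 3 did the same. MYH7B, a slow-type myosin heavy chain, measured 13.3, 56.1 and 14.5 FPKM in Tibetan 1, 2 and 3. CSRP3, a muscle LIM protein, measured 139, 493 and 128 FPKM, and MYL3, the slow and ventricular essential myosin light chain, measured 861, 2081 and 1031 FPKM. None of the 8 fast-fibre genes tested did so. ACTA1, the skeletal alpha-actin of mature fibres, was listed at 0 in Tibetan 2 and at 37424 and 41829 FPKM in Tibetan 1 and 3. An exact 0 in a table of FPKM can be a failed estimate, so this 0 may not be a measured absence. HBB, a globin of red cells, measured 191, 573 and 145 FPKM. The part that these differences play in the values of TNNC1 and TNNT1 was not tested.

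**Figure D4:**
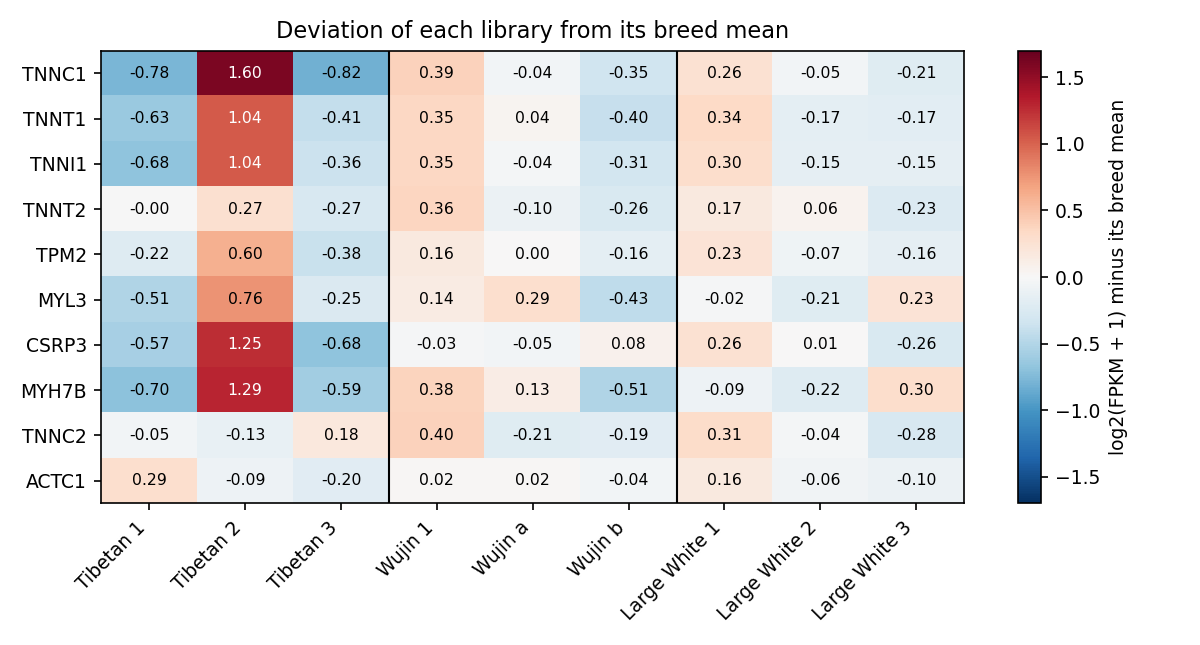
Heat map of log2(FPKM + 1) minus the breed mean for 10 genes (rows) in the 9 libraries (columns), on a colour scale centred on 0. TNNC1, TNNT1, TNNI1, MYL3, CSRP3 and MYH7B are raised in Tibetan 2, while TNNC2 is not.

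Thin-filament partners were examined with a list of tropomyosins, actins and their regulators, 14 of which were tested. In Tibetan minus Large White 6 were called higher and 4 lower, beside 13.0% and 63.2% of all tested entries. Their median log2 change was 0.19 against -0.77 for all tested entries. Median-ratio scaling gave 10 called higher and 3 called lower. Without Tibetan 2, 7 were called higher and 4 lower, with a median of 0.44, and ACTA1 went from -1.65 (adjusted p = 0.669) to 3.44 (adjusted p = 1.69e-06). TPM1, an alpha-tropomyosin that binds troponin T, averaged 9219 ± 1584, 2457 ± 249 and 1226 ± 119 FPKM in Tibetan, Wujin and Large White, and was called in all comparisons, including Wujin minus Large White (1.002, adjusted p = 0.0168). TPM2, the beta-tropomyosin, averaged 3822 ± 1491, 2887 ± 328 and 1925 ± 279 FPKM and was called higher in Tibetan than in Large White (0.93, adjusted p = 0.00711; 1.91 under median-ratio scaling). TMOD4, a skeletal tropomodulin that caps the pointed end, averaged 676 ± 82.7, 27.2 ± 4.55 and 12.9 ± 2.37 FPKM.

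The genes of this list called lower included ACTC1, the cardiac actin that fetal muscle also makes. ACTC1 averaged 24.6 ± 4.73 FPKM in Tibetan, 7582 ± 199 in Wujin and 6593 ± 659 in Large White libraries. Its Tibetan minus Large White change was -8.02 (adjusted p = 7.92e-09), and Wujin minus Large White, at 0.21, was not called (adjusted p = 0.357). ACTC1 and TNNT2 thus shared a low Tibetan level and high levels in both other breeds.

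TNNT2 is related to the embryonic and neonatal sarcomere genes by its time of use. Of 7 tested, 5 were called lower and 1 higher in Tibetan minus Large White, beside 63.2% and 13.0% of all tested entries. Their median log2 change was -3.24 against -0.77 for all tested entries. MYL4, the embryonic and atrial myosin light chain, averaged 3.72 ± 1.31 FPKM in Tibetan and 1657 ± 205 in Large White libraries (log2 change -8.49, adjusted p = 1.87e-08). MYH3, the embryonic myosin heavy chain, changed by -4.79 (adjusted p = 5.87e-08). MYBPH and MYH8 were the genes of this list that were not called lower. MYBPH, a myosin-binding protein, averaged 405 ± 197 and 322 ± 96.4 FPKM in Tibetan and Large White libraries and was not called (0.26, adjusted p = 0.48) except under median-ratio scaling (1.23, adjusted p = 0.00812). MYH8, the perinatal myosin heavy chain, was called higher, at 5.91 (adjusted p = 1.77e-08) in Tibetan minus Large White and 0.99 (adjusted p = 0.0109) in Wujin minus Large White.

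Fast-fibre sarcomere genes were called higher in 7 of 8 cases in Tibetan minus Large White, beside 13.0% of all tested entries, with a median log2 change of 4.10 against -0.77 for all tested entries, and none was lower. In Wujin minus Large White, 5 of 8 were called higher, TNNC2 among them, beside 1.67% of all tested entries. The slow-fibre list, to which TNNC1 and TNNT1 are related by function, was mixed. Of its 7 tested genes, 3 were called higher and none lower in Tibetan minus Large White, beside 13.0% and 63.2% of all tested entries. The median log2 change was 0.74 against -0.77 for all tested entries. The 3 were SLN, a small inhibitor of the calcium pump (2.17, adjusted p = 1.09e-05), PPARGC1A, a coactivator of oxidative metabolism (3.08, adjusted p = 4.48e-05), and MYH6, the alpha-cardiac myosin heavy chain (1.15, adjusted p = 0.000659). MYH7, a slow myosin heavy chain of the same list, matched no entry by symbol. Whether the entry matched to MYH6 also holds MYH7 signal was not tested.

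MYL3 averaged 1324 ± 661, 359 ± 87.8 and 739 ± 113 FPKM in Tibetan, Wujin and Large White. Like TNNT1, it was called higher in Tibetan than in Wujin (1.80, adjusted p = 0.000882), and its Tibetan minus Large White difference of 0.74 was not called (adjusted p = 0.0603) except under median-ratio scaling (1.72, adjusted p = 0.00298). Without Tibetan 2, the slow-fibre list had 3 genes higher and 2 lower in Tibetan minus Large White. The 2 were CSRP3 (-1.46, adjusted p = 8.55e-05) and MYH7B (-1.28, adjusted p = 0.00282). Median-ratio scaling gave 5 called higher and none called lower.

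Known regulators of troponin genes were read from a list of 34 tested genes, of which 7 were called higher and 16 lower in Tibetan minus Large White, beside 13.0% and 63.2% of all tested entries, with a median log2 change of -0.24 against -0.77 for all tested entries. The split turned to 18 higher and 9 lower under median-ratio scaling. Among all entries that scaling changed 1703 higher and 8280 lower into 4245 and 4327. MEF2C, a muscle transcription factor, averaged 54.5 ± 6.58 FPKM in Tibetan, 205 ± 26.3 in Wujin and 183 ± 12.8 in Large White libraries (-1.74, adjusted p = 4.37e-06, relative change -0.96), and under median-ratio scaling it was -0.77 and still called lower. TEAD2, a member of the TEA-domain family that binds the MCAT element, averaged 7.52 ± 0.397, 47.3 ± 3.65 and 58.1 ± 1.96 FPKM (-2.80, adjusted p = 8.28e-08, relative change -2.02). MYF5, an early myogenic factor, changed by -3.11 (adjusted p = 1.1e-06). GTF2IRD1, a factor known to bind an enhancer of the slow troponin I gene, averaged 1.08 ± 0.384, 5.75 ± 0.096 and 6.45 ± 0.595 FPKM (-1.85, adjusted p = 4.18e-06). The 7 called higher were MEF2D, MYF6, NFATC1, PPP3CA, PPP3CB, PPARGC1A and PPARGC1B, with log2 changes of 0.52 to 3.08.

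In Wujin minus Large White, where 1.67% of all tested entries were called higher and 4.85% lower, 1 of the 34 regulators was called. It was EYA2, a cofactor of homeobox factors in muscle, at -0.64 (adjusted p = 0.0485), named after its value was seen, and its call was lost under median-ratio scaling (-0.44, adjusted p = 0.158). The levels of TNNT2 in these breeds were 809 ± 189 and 499 ± 68.4 FPKM, as above. Whether any regulator bears on a troponin gene was not tested.

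Troponin T transcripts are also spliced into several forms, which gene-level FPKM do not separate. Of 16 splicing factors tested, 3 were called higher and 10 lower in Tibetan minus Large White, shares near the 13.0% and 63.2% of all tested entries, with a median log2 change of -1.06 against -0.77 for all tested entries, and 5 were higher and 6 lower under median-ratio scaling. MBNL1, a muscleblind protein that acts on TNNT2 exons, averaged 27.6 ± 3.62, 6.90 ± 0.839 and 7.82 ± 0.384 FPKM in Tibetan, Wujin and Large White (1.69, adjusted p = 4.09e-06). Its paralogue MBNL3 fell, with a change of -2.14 (adjusted p = 2.22e-06), and was lower in Wujin than in Large White too (-0.81, adjusted p = 0.0288), a call that median-ratio scaling ended (-0.60, adjusted p = 0.0640). RBM38, an RNA-binding protein, averaged 85.1 ± 20.3, 10.3 ± 1.08 and 10.7 ± 0.806 FPKM (2.85, adjusted p = 1.09e-06), and RBFOX2, a splicing factor of striated muscle, changed by -1.91 (adjusted p = 2.31e-06; -0.9959 under median-ratio scaling).

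TNNT2 and TNNC1 are heart genes as well, so markers of heart tissue were read beside them. Of 12 heart markers matched, 3 passed the minimum for testing, and all 3 of these, MYH6, CKMT2 and ANKRD1, are also made in skeletal muscle. MYH6 is here the entry matched to that symbol, and MYH7 matched none. The 12 together summed to 2330 to 2670 FPKM in the Tibetan, 548 to 820 FPKM in the Wujin and 677 to 810 FPKM in the Large White libraries. That sum was mostly MYH6, CKMT2 and ANKRD1, with Tibetan means of 1592, 708 and 249 FPKM. The markers below the minimum for testing each averaged lower in Tibetan than in Large White libraries, at values near 0. In Tibetan, Wujin and Large White, MYBPC3 averaged 0.032, 0.99 and 1.96 FPKM and RYR2 0.022, 0.216 and 0.379 FPKM. These differences were not tested. The cardiac factors GATA4 and TBX20 reached at most 0.03 and 0.0491 FPKM in any library. TBX5 reached at most 0.509, RYR2 0.429 and NPPB 0.266 FPKM. MYBPC3, the cardiac myosin-binding protein, was at 2.67 FPKM or less throughout, against 423 to 1023 FPKM of TNNT2 in the Wujin and Large White libraries.

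Markers of connective tissue were, like TNNT2, low in Tibetan muscle. All 7 fibroblast genes tested were called lower in Tibetan minus Large White, where 63.2% of all tested entries were, with a median log2 change of -4.07 against -0.77 for all tested entries. In Wujin minus Large White none of the 7 was called and their median was -0.49, where 1.67% of all tested entries were called higher and 4.85% lower. TNNT2, at 0.68 in that comparison, was not called either (limma adjusted p = 0.0679). Over the libraries the 7 fibroblast genes summed to 321 to 359 FPKM in the Tibetan, 3065 to 5617 FPKM in the Wujin and 5357 to 5994 FPKM in the Large White libraries. Their part in the troponin levels was not tested.

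The genes whose levels most resembled each troponin were ranked over the 9 libraries among 4633 named entries averaging 5 FPKM or more, as a description. For TNNT2 the closest were LZTS1 (Pearson r = 0.999), BRD3 (0.998), E2F1 (0.998) and PRKCSH (0.998). So many entries separate Tibetan from the other libraries that 956 of the 4633 had r of at least 0.95 with TNNT2. For TNNC1 only ESR1 (0.961) and PRDX2 (0.960) reached that value, with TNNI1 next at 0.948. For TNNT1 only ACAA2 (0.953), a mitochondrial thiolase, reached it, followed by PRDX2 (0.913), MYL3 (0.912) and CA3 (0.909).

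With breed means removed, TNNT1 was closest to TNNI1 (0.995), TIMM8B (0.976) and PFKL (0.971), and TNNC1 to ARRDC2 (0.988), PFKL (0.977), TNNI1 (0.974) and TPM2 (0.973). TNNT2 was closest to BTF3 (0.977), HYI (0.972) and PLIN5 (0.960) and shared none of these with TNNC1 or TNNT1 among its 8 closest. All such values rest on 9 libraries that the genes share, and for TNNC1 and TNNT1 on the high values of Tibetan 2.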

How the data were processed

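RNA of embryonic longissimus dorsi was measured in 9 libraries, 3 per breed. The authors deposited 1 table of FPKM, per the file headers. Per the submitters' processing notes, which carry no version, TopHat was used. The genome build, the annotation and the quantifier are not named (not given in the sources used here). Symbols were matched by identifier for 11179 of 19643 entries. TNNI2, TNNI3 and TNNT3 matched no entry by symbol and were therefore not analysed here. All value columns were used.

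Entries averaging 1 FPKM or more were fitted with limma 3.58.1 in R 4.3.3 (3 breed means, trended eBayes) on log2(FPKM + 1), with Benjamini-Hochberg adjustment and calls under an adjusted p of 0.05. The code was tested on simulated data. Ratios and shares were tested by exact permutation of the F statistic. Genes named were the troponins, in each other list up to 4 genes of smallest F-test p and those with a mean of at least 100 FPKM, and the 8 genes closest to each member, of which the text gives a part. MYH7B, HBB, EYA2, the regulators called higher, the heart and fibroblast markers and the ratios with TNNI1 were picked after their values were seen. The members and lists were chosen with earlier results of these data known.

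Each choice was varied in turn, with a pseudocount of 0.1 or 5, without the filter or with a minimum mean of 5 FPKM, with a minimum change, 4 rescalings, the 2 breeds alone, a replicate block and each library left out. The list counts under other settings were chosen after seeing the data.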

Additional observations from a re-analysis of the deposited data

How the results depend on the processing

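The calls of lower TNNT2 in Tibetan muscle held under every setting run, and without any 1 library the log2 change was -6.20 to -5.93 against Large White and -6.88 to -6.56 against Wujin. TNNT1 in Tibetan minus Large White lost its call with no filter (1.01), equal totals (0.87), only the 6 libraries of both breeds (1.01) and a replicate block (1.01, adjusted p = 0.0825), and without any Wujin or Large White library or Tibetan 2, with 0.49 to 1.33 over libraries left out. Its F test had adjusted p = 0.0611 with equal totals and 0.0129 to 0.0533 over libraries left out. TNNC1 in Tibetan minus Large White was called only under median-ratio scaling, at 1.96, as was its F test (adjusted p = 0.0419), and its Wujin minus Large White change was -0.033 to 0.33, below 0 without Wujin 1. TNNT2 in Wujin minus Large White was called with a pseudocount of 5 (0.68) and without Wujin b, over a range of 0.50 to 0.81. The log2 ratio of TNNC1 to TNNT1 differed by -0.30 to 0.18 for Tibetan minus Large White (above 0 without Tibetan 1, 0.046, Tibetan 3, 0.18, or Large White 2, 0.034), -0.93 to -0.44 for Tibetan minus Wujin and 0.58 to 0.68 for Wujin minus Large White.

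Counts of all entries called higher and lower moved as follows. For Tibetan minus Large White (1703 and 8280) a mean of at least 5 FPKM gave 4329 lower, median-ratio scaling 4245 and 4327, quantile normalization 4155 and 4117, and a log2 change of at least 1 gave 988 and 5161. For Tibetan minus Wujin (1809 and 7062) the same settings gave 3907 lower, 4052 and 3978, 3875 and 3886, and 985 and 3803. For Wujin minus Large White (219 and 636) a pseudocount of 0.1 gave 120 and 150, a pseudocount of 5 gave 1504 lower, a mean of at least 5 FPKM 141 and 261, median-ratio scaling 167 lower, quantile normalization 548 higher, equal totals 341 lower, equal totals without the 50 highest entries 214 lower, a log2 change of at least 1 gave 73 and 154, and only 6 libraries 116 and 164. Leaving out 1 library gave 23 to 253 higher and 43 to 1380 lower. The F test called 5717 with a mean of at least 5 FPKM. The cause of these moves was not tested.

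Tibetan and Large White columns share 3 replicate numbers, and the Wujin columns share number 1 only, since the rest carry a repeated header. Same-numbered Tibetan and Large White libraries had correlations of deviations of 0.0130, -0.0226 and -0.0760, so the numbers were not taken to pair them. Wujin 1 had -0.0033 with Tibetan 1 and 0.159 with Large White 1, and no paired analysis was possible for Wujin because fewer than 2 numbers are shared. With the replicate block, for Tibetan minus Large White, 1713 entries were called higher and 8351 lower, TNNC1 was 0.98 (adjusted p = 0.158) and TNNT2 was -6.07 (adjusted p = 8.79e-05). The unknown number of fragments limits what can be said of low values, such as those of the heart factors.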
